A study of Mus musculus with 78 samples.

Results

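The genes described here are 38 genes of the cilium and of inherited ciliopathies (Bardet-Biedl syndrome, intraflagellar transport, nephronophthisis and connecting cilium genes), chosen by symbol. A probe set with that symbol alone was found for 36 of them, among 19301 genes measured, and each of the 36 had 1 probe set. Arl6 and Arl13b have none here. Rpgrip1l was too dim in every group to be tested, which left 35 tested members of 15102 tested genes. The members passed or failed that filter as any gene did, on the mean of at least 1 group above 9.01, the median of all values.

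A cilium is an extension of the cell surface built on a microtubule axoneme that grows from a basal body. Intraflagellar transport (IFT) trains carry cargo along it, kinesins drive them outward, the transition zone gates its base, and the BBSome, a complex of Bardet-Biedl proteins, sorts membrane proteins into and out of it. The light-sensitive outer segment of rods and cones is a modified primary cilium, joined to the cell body by the connecting cilium, and mutations in many of these genes cause retinal degeneration.

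Retinas of adult mice of 22 transgenic lines were dissociated for 15 min, 200 fluorescent cells were sorted into each sample, and the samples were measured on 78 whole-transcript arrays in 26 sets of 3 biological replicates. Each line marks cells through the promoter or driver in its name, and the background of all is given as mixed, of C57BL/6J and FVB/N-Swiss Webster hybrid mice. Lines from the MMRRC repository, hybrids known for a recessive photoreceptor degeneration mutation, were backcrossed to C57BL/6J and used in the F2 generation. Every line named with Cre carries the Rosa26-LSL-RFP reporter, except the PV line, which carries ThyStopY. Rods came from b2-Cre × Rosa26-LSL-RFP, measured as 3 sets (b2 1st in batch 1, b2 2nd and b2 single in batch 2). Cones came from Tg(Chrnb4-EGFP)1Gsat (batch 1) and from d4-Cre × Rosa26-LSL-RFP (no batch label). Horizontal cells came from B6Cf1-Tg(Gja10-Cre, #14)BR. Bipolar cells came from B6Cf1-Tg(mGlur6-Cre)BR (ON-bipolar), B6Cf1-Tg(Kcng4-CreERT2, #)BR, B6:FVB-Tg(Pcp2-EGFP)2Yuza (rod bipolar) and Tg(Lhx4-EGFP)199Gsat. Amacrine cells came from Tg(Arc-EGFP)194Gsat/Mmcd (3 sets, the batch control), Tg(Igfbp2-EGFP)17Gsat, Tg(Rgs5-EGFP)24Gsat, Tg(Crh-Cre)282Gsat/Mmnc, 129S6-Chat_tm1(cre)Lowl/J for starburst cells, Tg(Chrna3-EGFP)BZ135Gsat/Mmnc, Tg(6430514L14Rik-EGFP)95Gsat, called Fam81a, Tg(Fbxo32-EGFP)138Gsat/Mmcd and Tg(Ier5-EGFP)267Gsat. Ganglion cells came from 129SVCB6(PV-CRE#32)SA-09 crossed to ThyStopY (GFP), Tg(Drd4-EGFP)W18Gsat/Mmnc, which the labels give as RFP, mOpn4-Cre1D4 and C57BL/6-Tg(Grik4-Cre)G32-4Stuj. Microglia came from Tg(Csf2rb2-EGFP)334Gsat.

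Values are intensities on a linear scale and differences are on the log2 scale. Values at or below 3.99, taken as a floor, carry no order. Each class was set against the unweighted mean of the remaining 5, with the 22 line means as samples, and a gene was called at a limma Benjamini-Hochberg adjusted p below 0.05, over all genes tested, and a difference of at least 1. In sorted samples fewer cells of a type and less RNA per cell cannot be told apart. Of 8 rod markers 6 are in the table: their summed intensity was 5610 to 8260 on the b2 arrays and 2240 to 3020 on the cone arrays, where Sag alone averaged 2480 (Chrnb4) and 2510 (d4). The rod marker Gnat1 was 332, 0.217 and 227 in Chrnb4 and at most 0.194 in d4. Cnga1 was 1.45, 62 and 1.5 in Chrnb4 and at most 0.576 in d4. Pde6a (at most 4.79) and Pde6b (at most 1.55) were low in both cone lines. The part of rod RNA in the Chrnb4 values below was not tested. The 8 cone markers summed to 14300 to 17400 on the cone arrays and 36.2 to 302 on the b2 arrays, and the 6 microglia markers to 5970 in the Csf2rb2 set. The sums outside their own class reached 2380 for rod markers, on 1 Crh array, and 1940 for cone markers, on 1 Chrna3 array. The lowest correlation between arrays of a set was below 0.8 in the Crh, Chrna3 and Drd4 lines.

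The promoter windows of 6 members are shown because they hold, or lack, the motifs of factors known for photoreceptor and cilium genes. Fam161a, Rpgrip1 and Tulp1 are members called higher in photoreceptors below, and Bbs7, Ahi1 and Mks1 were chosen after their matches were seen. Each window runs from 250 bases before to 50 bases after the annotated start in RefSeq's annotation of GRCm38.p6, on the strand of the gene. The positions are chr11:23008097-23008396 (plus strand) for Fam161a, chr14:52110653-52110952 (plus) for Rpgrip1, chr17:28365167-28365466 (minus) for Tulp1, chr3:36613340-36613639 (minus) for Bbs7, chr10:20952297-20952596 (plus) for Ahi1 and chr11:87852965-87853264 (plus) for Mks1. Capitals mark matches to TAATCC, a CRX-type homeobox motif, or to the full X-box of the RFX factors (the arm GTTGCC or a close form of it, then its mirror image), on either strand.
Fam161a: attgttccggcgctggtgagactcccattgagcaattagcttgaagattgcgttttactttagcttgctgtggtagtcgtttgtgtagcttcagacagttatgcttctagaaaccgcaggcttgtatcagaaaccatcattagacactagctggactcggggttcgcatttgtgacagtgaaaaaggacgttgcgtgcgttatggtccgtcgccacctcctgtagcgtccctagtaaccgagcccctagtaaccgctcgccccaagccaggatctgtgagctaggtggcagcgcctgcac
Rpgrip1: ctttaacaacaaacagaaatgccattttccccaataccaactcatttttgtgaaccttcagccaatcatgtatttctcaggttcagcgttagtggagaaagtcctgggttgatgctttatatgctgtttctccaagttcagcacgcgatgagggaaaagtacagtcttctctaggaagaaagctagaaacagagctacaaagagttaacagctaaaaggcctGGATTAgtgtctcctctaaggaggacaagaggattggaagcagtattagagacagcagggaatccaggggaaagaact
Tulp1: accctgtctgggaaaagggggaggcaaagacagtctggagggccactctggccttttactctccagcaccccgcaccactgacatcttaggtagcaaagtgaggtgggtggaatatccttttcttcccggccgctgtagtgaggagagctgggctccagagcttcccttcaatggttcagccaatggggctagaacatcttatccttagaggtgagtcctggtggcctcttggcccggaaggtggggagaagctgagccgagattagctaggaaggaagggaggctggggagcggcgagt
Bbs7: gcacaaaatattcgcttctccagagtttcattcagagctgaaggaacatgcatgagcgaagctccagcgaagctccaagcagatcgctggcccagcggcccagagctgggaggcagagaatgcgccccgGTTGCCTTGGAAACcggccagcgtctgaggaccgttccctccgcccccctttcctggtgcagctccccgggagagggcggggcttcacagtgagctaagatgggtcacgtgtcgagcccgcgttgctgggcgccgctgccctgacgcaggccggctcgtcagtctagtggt
Ahi1: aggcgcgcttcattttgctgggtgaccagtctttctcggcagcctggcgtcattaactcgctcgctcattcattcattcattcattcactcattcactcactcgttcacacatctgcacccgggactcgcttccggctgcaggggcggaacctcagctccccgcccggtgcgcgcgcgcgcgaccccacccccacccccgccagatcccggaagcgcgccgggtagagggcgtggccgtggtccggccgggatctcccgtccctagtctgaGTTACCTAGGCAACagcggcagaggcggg
Mks1: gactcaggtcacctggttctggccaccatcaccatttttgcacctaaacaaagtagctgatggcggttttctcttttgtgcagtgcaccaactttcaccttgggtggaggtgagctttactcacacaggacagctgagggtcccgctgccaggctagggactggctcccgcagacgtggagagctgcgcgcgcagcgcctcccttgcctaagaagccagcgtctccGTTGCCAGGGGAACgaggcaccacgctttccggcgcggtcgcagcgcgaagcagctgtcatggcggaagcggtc

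In Rpgrip1 the match to TAATCC lay on the minus strand, its first printed base at position -28 from the start. The full X-box began at position -121 in Bbs7, 22 in Ahi1 and -24 in Mks1. The shown windows of Fam161a and Tulp1 hold neither. The reference table holds windows for 34 of the members, 41 windows in all, and none for Rp1. TAATCC was in 1 of 11 windows of members called higher in photoreceptors, in 1 of 26 windows of the other tested members, and in 7.06% of all 32851 windows. The X-box arm GTTGCC, which can lie inside the full motif, was in 1 of 11 windows of the former (Bbs5), in 13 of 26 of the latter, and in 12.5% of all. The full X-box was in 0 of 11, 3 of 26 (11.5%) and 0.451%. The 3 full X-box matches among tested members thus stood in promoters of genes that were not called higher in photoreceptors. The share of GTTGCC among the called members, 9.09%, was near that of all windows. These counts are a description, and a match is not a binding site.

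**Figure D1:**
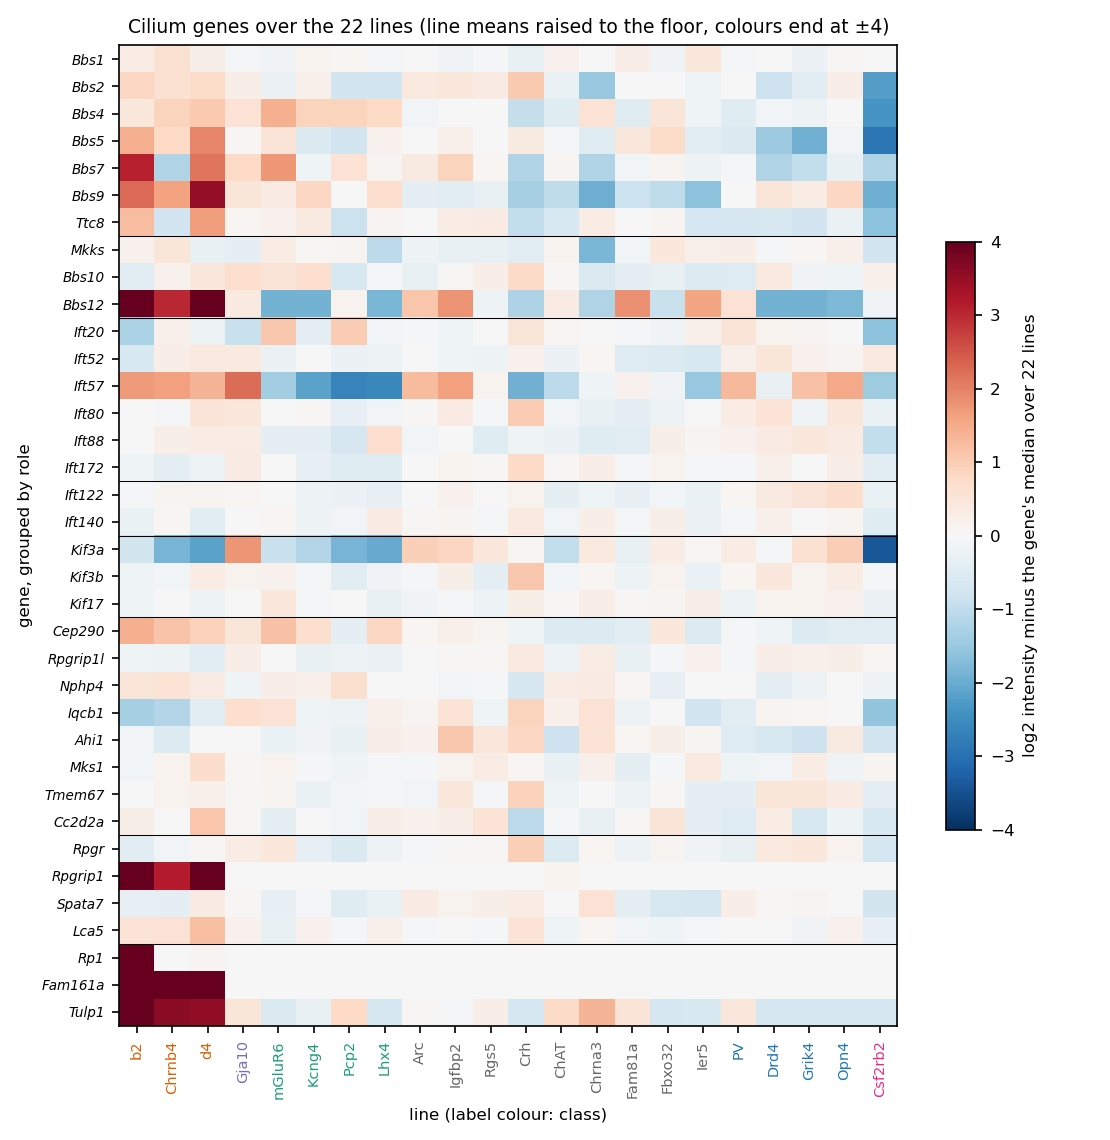
Colour gives the log2 intensity of each of the 36 measured members (rows, grouped by role) in each of 22 lines (columns, label colour by class), minus the member's median over the lines, with line means raised to the floor of 3.99. Dark red blocks stand in the 3 photoreceptor lines at left for Rpgrip1, Fam161a, Tulp1 and Bbs12, and in b2 for Rp1, while most IFT and transition zone rows stay pale across lines.

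A minority of the cilium genes were higher in photoreceptors, among them BBSome subunits and proteins of the photoreceptor cilium. Of the 35 tested members 11 (31.4%) were higher in photoreceptors, against 2.03% of all genes tested, and 0 were lower, against 4.32% (18 members had an unadjusted p below 0.05). Without the line b2 the counts were 7 higher and 1 lower (Kif3a), and without replicate 3 of every set, or without microglia in the reference, they were 8 higher and 2 lower (Kif3a and Iqcb1). Without d4 they were 8 higher and 1 lower (Iqcb1). The median difference of the members was 0.39, against -0.05 over all genes. By role, 5 of 7 BBSome subunits, 1 of 3 chaperonin-like genes of the BBSome, 1 of 7 transition zone genes, 1 of 4 connecting cilium genes and 3 of 3 genes of the axoneme and cilium base were higher, and 0 of 6 IFT-B, 0 of 2 IFT-A and 0 of 3 kinesin genes. For 7 members (20% of those tested, against 1.4% of all genes) each of the 3 photoreceptor lines lay above every other line: Bbs5, Bbs9, Bbs12, Rpgrip1, Rp1, Fam161a and Tulp1. For Rp1 this order rests on values near or under the floor in the cone lines.

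**Figure D2:**
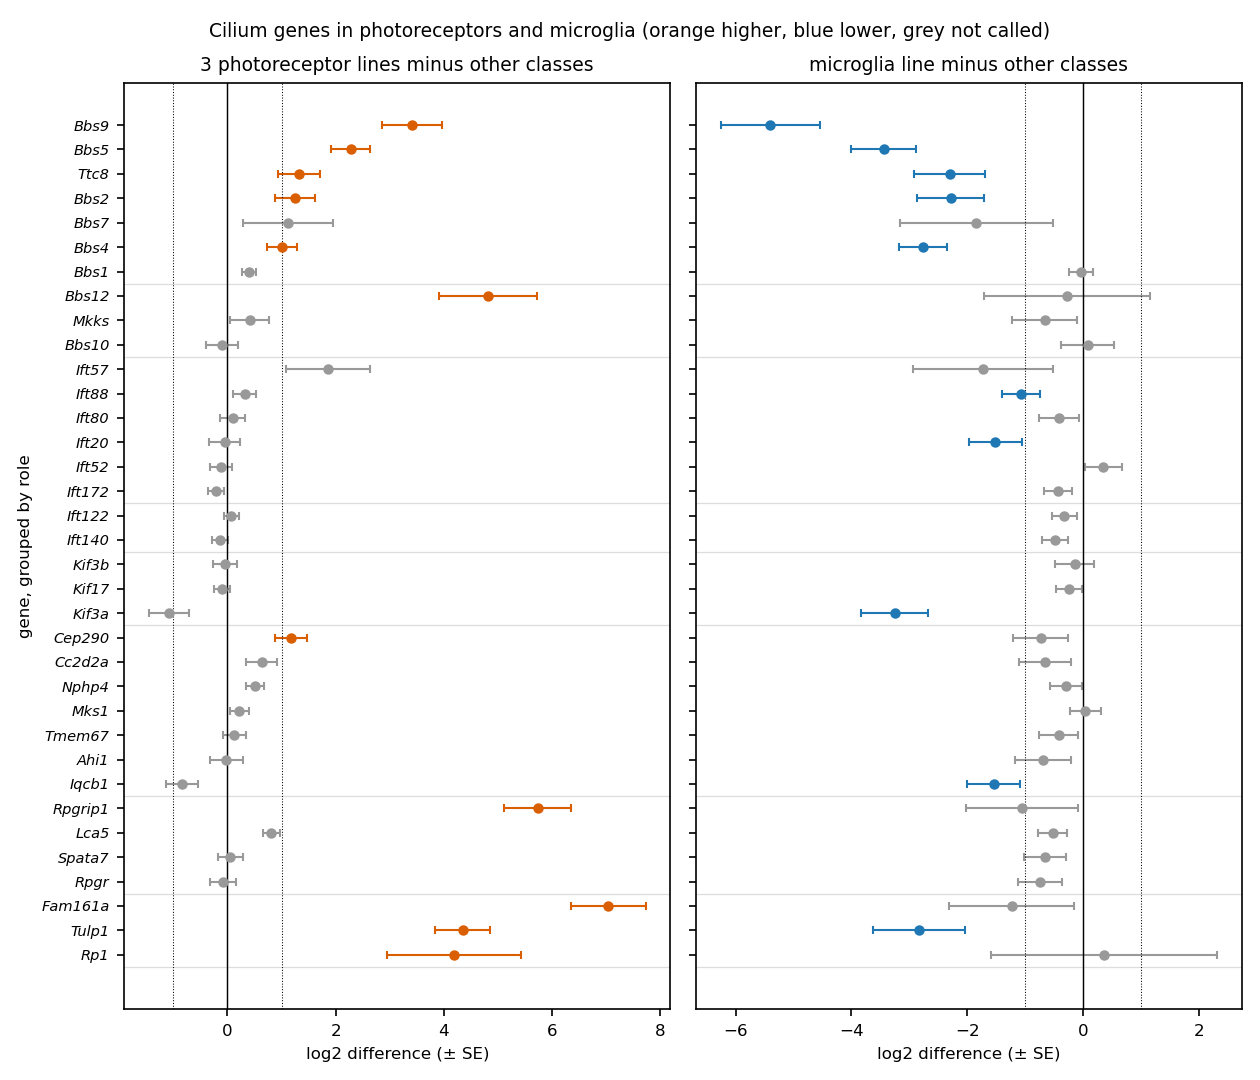
Points give the log2 difference of each tested member between the 3 photoreceptor lines and the other classes (left) and between the microglia line and the other classes (right), with bars of 1 SE; dotted lines mark differences of 1. Orange points (11, left) were called higher and blue points (10, right) lower, and the axoneme genes and Rpgrip1 sit farthest right in the left panel with Bbs12.

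Fam161a encodes a microtubule-binding protein of the connecting cilium and basal body. Its intensity was 83 at the lowest, 177 at the median and 387 at the highest of 15 photoreceptor arrays. On the arrays of other lines it had a median of 1.12 and a highest value of 22.4, on 1 Kcng4 array. The photoreceptor and other arrays did not overlap, and cones stood below rods in most values (153, 83 and 107 in Chrnb4; 172, 108 and 138 in d4; 120 to 387 in b2). The class difference was at least 5.21, with values raised to the floor (7.04, SE 0.69, as deposited; limma adjusted p = 2e-06). The Kcng4 arrays held Fam161a at 0.242, 22.4 and 3.41 beside rod marker sums of 282, 271 and 88.9, whose part in that value was not tested.

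Rpgrip1 anchors RPGR in the connecting cilium. It ran from 18.4 over a median of 113 to 178 on photoreceptor arrays, and from 0.133 over 1.38 to 6.69 elsewhere. No array of another class reached the lowest photoreceptor array, which was 1 of Chrnb4 (18.4, 42.3 and 56.8), and d4 held 56.8, 169 and 80.8. The difference was at least 4.21 (5.74, SE 0.62; limma adjusted p = 7e-06). The partner it anchors, Rpgr, differed by -0.09 (SE 0.24; adjusted p = 0.83), with 3.72 to 12.0 on photoreceptor arrays and 3.63 to 19.5 on others. Spata7, another connecting cilium gene, differed by 0.05 (SE 0.23). Lca5, which encodes lebercilin, differed by 0.81 (SE 0.16; adjusted p = 0.0024), which passed the p threshold and not the size threshold.

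Tulp1, a tubby-like protein that is needed for transport to the outer segment, ran from 58.7 over a median of 86.3 to 147 on photoreceptor arrays, and from 0.956 over 5.98 to 39.8 on the others. The groups did not overlap, and the rod and cone arrays did. The difference was 4.35 (SE 0.51; limma adjusted p = 1.7e-05), or 3.79 with values raised to the floor. The highest values outside photoreceptors were in Chrna3 (2.97, 39.8 and 35.8), whose arrays also held cone marker sums of 1940, 836 and 1200. The array with the largest cone sum held the lowest Tulp1 value of the set, and the part of cone RNA in the other values was not tested.

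Rp1, a microtubule-associated protein of the outer segment axoneme, marked rods and not the photoreceptor class as a whole. It was 220 to 379 on the 9 b2 arrays, 2.5, 7.62 and 2.41 in Chrnb4 and 1.6, 1.44 and 34.9 in d4. On the other arrays it reached at most 3.95, below the floor. Of the 6 cone arrays 2 lay above the floor and the rest at or below it, so the cone lines overlapped the other classes. The class difference was at least 2.52, with values raised to the floor (adjusted p = 0.020). As deposited it was 4.19 (SE 1.24; limma adjusted p = 0.036), and this was 2.1 (adjusted p = 0.33) without b2 and 3.65 (adjusted p = 0.086) without replicate 3 of every set.

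**Figure D3:**
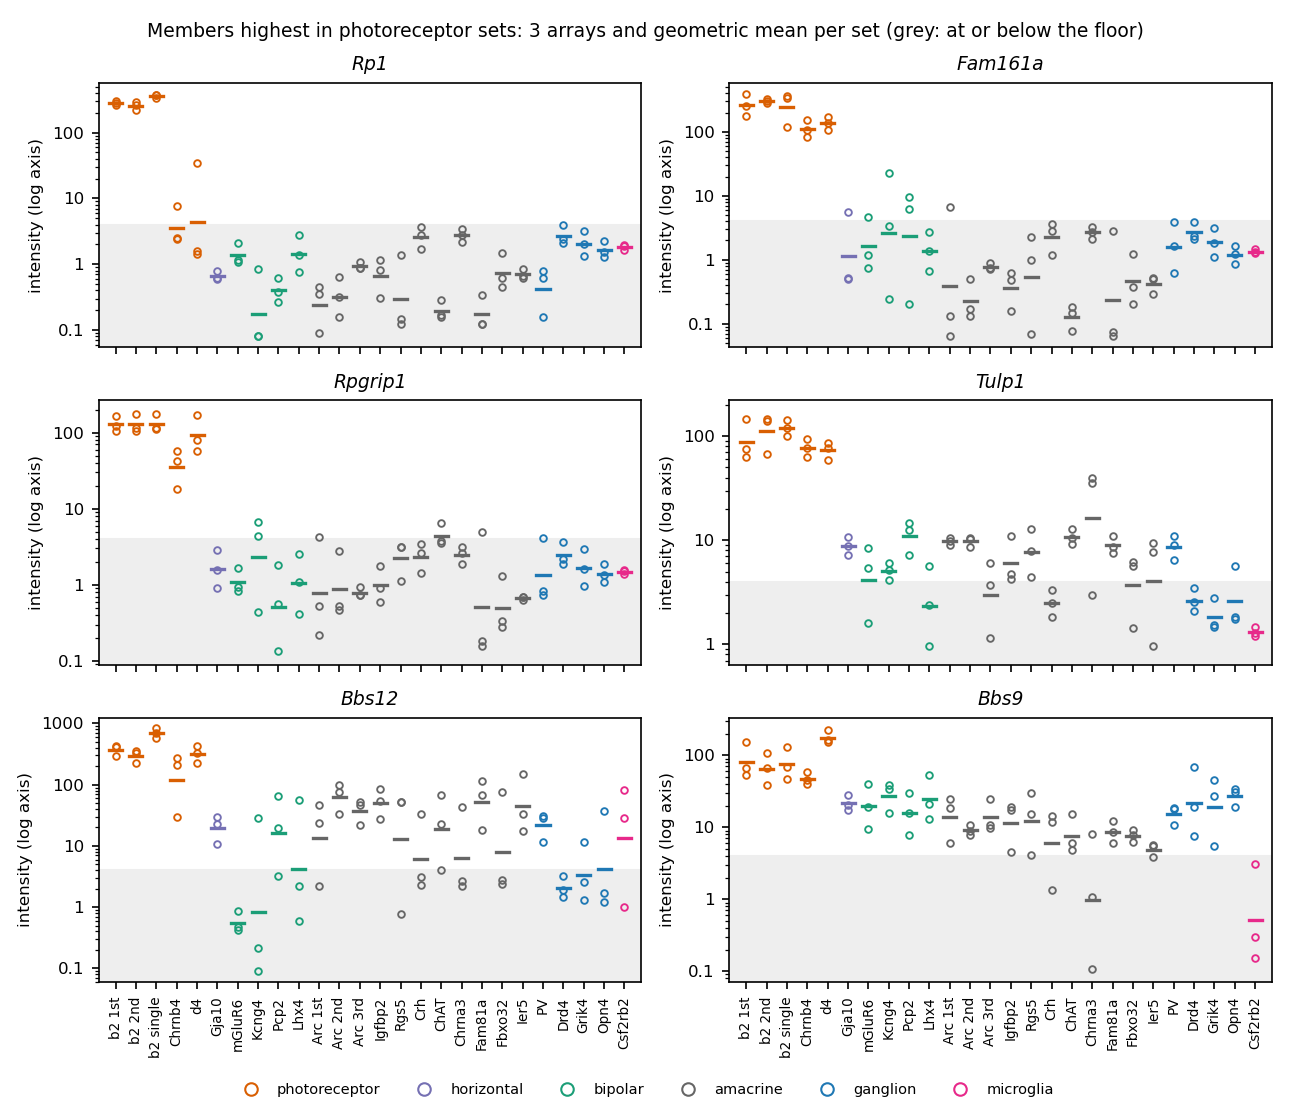
Each panel gives the intensity (log axis) of 1 member on the 3 arrays of each of 26 sets as open circles, with the geometric mean as a bar and class as colour; grey marks values at or below the floor. The photoreceptor sets at left stand above the rest for Fam161a, Rpgrip1, Tulp1, Bbs12 and Bbs9, while for Rp1 the b2 sets alone (220 to 379) do.

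Among the genes of the BBSome and its assembly, Bbs12 had the largest photoreceptor difference. It encodes a chaperonin-like protein that helps assemble the BBSome. It ran from 29.6 over a median of 334 to 833 on photoreceptor arrays and from 0.0896 over 22.0 to 147 on the others. The ranges overlapped: 1 Chrnb4 array (274, 213 and 29.6) lay below the median of the 33 amacrine arrays, 33.1. Arrays of other classes reached 82.9 (microglia), 66 (bipolar) and 36.8 (ganglion), and 1 Ier5 array held 147. The class difference was at least 4.14 (4.82, SE 0.91; limma adjusted p = 0.0021). The other chaperonin-like genes, Bbs10 (-0.10, SE 0.29) and Mkks (0.41, SE 0.36), were not called.

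Of the BBSome subunits, Bbs9 was 38.5 to 223 on photoreceptor arrays (median 67.0), highest in d4 (223, 152 and 162), and 0.106 to 68.6 on others (median 12.1). Its difference was at least 2.76 (3.41, SE 0.55; adjusted p = 0.00049). Bbs5 was 46.1 to 186 (median 65.6) against 1.08 to 88.6 (median 26.1), a difference of 2.28 (SE 0.36; adjusted p = 0.00038), or 2.02 with values raised to the floor. For both genes single arrays of other classes reached into the photoreceptor range, and so did the Fbxo32 line mean of Bbs5, 49.8. No other line mean reached the lowest photoreceptor line mean, which was 47.2 for Bbs9 and 52.3 for Bbs5. The other subunits called were Ttc8, also known as Bbs8 (1.32, SE 0.39), Bbs2 (1.24, SE 0.37) and Bbs4 (1.01, SE 0.27), with limma adjusted p-values of 0.033, 0.036 and 0.019. Bbs1 differed by 0.39 (SE 0.13; adjusted p = 0.066) and Bbs7 by 1.12 (SE 0.84; adjusted p = 0.41).

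The 3 smaller BBSome calls were each lost in several alternatives. Bbs4 lay at the size threshold and lost its call in 16 of 33 alternatives, among them those without Chrnb4 (0.96, adjusted p = 0.083) and without d4 (0.87, adjusted p = 0.086). Ttc8 was 1.06 (adjusted p = 0.18) without b2 and 0.84 (adjusted p = 0.20) without d4. Bbs2 kept its size but not its call without a photoreceptor line, at 1.19 without b2, 1.29 without Chrnb4 and 1.23 without d4 (adjusted p = 0.12, 0.093 and 0.087). Without replicate 1 of every set Bbs2 (1.15), Bbs4 (1.09) and Ttc8 (1.30) were not called (adjusted p = 0.15, 0.085 and 0.11). Bbs2 was also lost without replicate 2 (1.43, adjusted p = 0.057) and Ttc8 without replicate 3 (1.23, adjusted p = 0.067). With microglia left out of the reference, in which these subunits were low, Bbs2 was 0.81, Bbs4 0.47 and Ttc8 0.90 (adjusted p = 0.16, 0.25 and 0.14). Cep290, the centrosomal protein of the transition zone whose loss causes Leber congenital amaurosis, was 6.23 to 40.1 on photoreceptor arrays (median 14.9) and 2.1 to 18.2 on others (median 5.75). Its difference was 1.17 (SE 0.30; limma adjusted p = 0.016), with 1.03 (adjusted p = 0.090) without b2 and 1.18 (adjusted p = 0.058) without Chrnb4.

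In the lines of batch 1 alone b2 1st and Chrnb4 stand for photoreceptors. That batch has no horizontal or microglia line, so the reference held only the bipolar, amacrine and ganglion classes. There 3 members were called: Fam161a (7.43, SE 0.60), Rpgrip1 (6.23, SE 0.95) and Tulp1 (3.18, SE 0.40), with limma adjusted p-values of 0.0065, 0.035 and 0.019. Bbs12 was 3.32 (adjusted p = 0.078), Bbs9 2.31 (adjusted p = 0.060), Bbs5 1.64 (adjusted p = 0.095) and Rp1 6.46 (adjusted p = 0.15). With batch removed as a term, 9 members were called, and Bbs4 (1.09, adjusted p = 0.11) and Ttc8 (0.92, adjusted p = 0.14) were not. This leaves out d4 and Fbxo32, which have no batch label. Arc 2nd has none either and was taken as batch 2 from its name. The term rests on b2 and Arc, the lines measured in more than 1 batch.

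Apart from Cep290, none of the IFT, kinesin and transition zone genes was called in photoreceptors. Among the IFT-B genes Ift88 differed by 0.32 (SE 0.21), Ift52 by -0.12 (SE 0.20), Ift80 by 0.10 (SE 0.23), Ift172 by -0.21 (SE 0.15) and Ift20 by -0.05 (SE 0.29). Ift57 had the widest estimate, 1.86 (SE 0.77; adjusted p = 0.13). The IFT-A genes Ift122 (0.07, SE 0.14) and Ift140 (-0.14, SE 0.15), which serve retrograde transport, and the motors Kif3b (-0.04, SE 0.22) and Kif17 (-0.10, SE 0.14) had differences no larger than their errors.

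Kif3a, the other kinesin-2 motor subunit, differed by -1.08 (SE 0.37; adjusted p = 0.067). It was called lower under the stricter filter on dim genes, without microglia in the reference, without b2, without ChAT and without replicate 3 of every set. The transition zone genes Nphp4 (0.51, SE 0.17), Cc2d2a (0.63, SE 0.29), Mks1 (0.22, SE 0.17), Tmem67 (0.13, SE 0.21) and Ahi1 (-0.02, SE 0.31) were not called. Iqcb1, which encodes nephrocystin-5, differed by -0.84 (SE 0.30; adjusted p = 0.073), and was called lower without microglia in the reference, without d4 and without replicate 3 of every set. The 95% intervals of Ift122 (-0.22 to 0.36) and Ift140 (-0.45 to 0.16) lie inside the size threshold of 1, and that of Ift57 (0.25 to 3.47) does not.

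Rods and cones were next compared in both pairs of sets the study holds. The pairs share no arrays, but the labels place only the first in a single batch. In batch 1 (b2 1st against Chrnb4) 3 members were higher in rods and 1 lower, that is 8.57% and 2.86% of the tested members against 3.52% and 4.62% of all genes. For the later b2 sets against d4 they were 1 higher and 3 lower, 2.86% and 8.57% against 3.85% and 7.89%. As a share, the members thus differed between rods and cones about as often as other genes. Rp1 was higher in rods by 6.30 (SE 0.86; limma adjusted p = 1.7e-07) in batch 1 and by 6.14 (SE 0.74; adjusted p = 4.7e-09) in the later sets, 5.83 and 5.21 with values raised to the floor.

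Ift20, which carries membrane cargo from the Golgi to the cilium as part of IFT-B, was the member lower in rods in both pairs. It was 92.8, 787 and 289 in b2 1st, 501, 216 and 257 in b2 2nd and 195, 267 and 168 in b2 single. The cone sets held 728, 636 and 815 (Chrnb4) and 486, 596 and 553 (d4). The groups overlapped through 1 array each of b2 1st and b2 2nd. The differences were -1.39 (SE 0.32; limma adjusted p = 0.0020) and -1.12 (SE 0.28; adjusted p = 0.0029), with an SE from the spread shared by all sets, not from the widely spread b2 1st arrays alone. The first was -0.60 (adjusted p = 0.21) without replicate 1 of b2 1st, and the second fell below the size threshold under cyclic loess (-0.90, adjusted p = 0.017) and just missed it without replicate 2 of b2 2nd (-1.0, adjusted p = 0.013).

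Bbs7, a BBSome subunit, separated the cone lines from each other. It was 1.8, 0.822 and 1.77 in Chrnb4, 33.4, 38.4 and 52.3 in d4, and 32.6 to 162 on the b2 arrays. All 3 Chrnb4 arrays were below the floor, and d4 overlapped the lower end of the rods. Rods exceeded Chrnb4 by at least 4.25 (5.78, SE 0.73; limma adjusted p = 2.4e-08), and the later rods differed from d4 by 1.00 (SE 0.63; adjusted p = 0.31). Chrnb4 was lower than d4 by at least 3.35 (-4.88, SE 0.73; adjusted p = 6.6e-06). The rod against cone difference differed between the pairs by at least 3.25 with values raised to the floor (adjusted p = 0.014), and by 4.79 as deposited (SE 0.96; limma adjusted p = 0.0020), the only member so called, against 1.26% of all genes in that direction, and 0 members (0.576% of all genes) differed in the other. Chrnb4 and d4 also differ in reporter and batch label, which cannot be told apart from the line.

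Ttc8, another subunit, followed in part. It was 6.31, 5.6 and 10.9 in Chrnb4 and 38.4, 30.2 and 54.9 in d4, with no overlap between them. The rods held 13.8, 52.9 and 13.4 in b2 1st, 19.9, 15.2 and 23 in b2 2nd and 79, 50.2 and 60.6 in b2 single. Chrnb4 differed from d4 by -2.45 (SE 0.50; limma adjusted p = 0.0011) and rods of b2 1st exceeded Chrnb4 by 1.55 (SE 0.50; adjusted p = 0.035), which was 0.90 (adjusted p = 0.38) without replicate 2 of b2 1st, and 1.45 or 1.36 (adjusted p = 0.11 and 0.12) without replicate 1 or 2 of Chrnb4. In all, 3 members were lower in Chrnb4 than in d4 (8.57%, against 3.76% of all genes) and 0 higher (1.26%). The third was Cc2d2a, a transition zone gene, at 8, 9.45 and 7.4 against 20.6, 19.5 and 14.8. Its groups did not overlap (-1.13, SE 0.34; adjusted p = 0.033), but the call was lost without replicate 1 or 3 of Chrnb4 (-1.11 and -1.06, adjusted p = 0.090 and 0.092) or without replicate 1 or 2 of d4 (-1.04 and -1.08, adjusted p = 0.10 and 0.11).

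The remaining later-set calls were small. Ift52, an IFT-B core gene, was 10.3, 8.89 and 9.95 in b2 2nd and 12.5, 14 and 36 in b2 single, against 17.8, 43.7 and 30.6 in d4. Bbs10 was 10.7, 12.8 and 13.3 and 10.9, 11.5 and 10.4, against 31.7, 14.6 and 30.7. For Bbs10 the groups did not overlap, and for Ift52 they overlapped through 1 b2 single array. The differences were -1.11 (SE 0.31; limma adjusted p = 0.0076) for Ift52 and -1.07 (SE 0.34; adjusted p = 0.021) for Bbs10. They were -0.81 (adjusted p = 0.13) without replicate 2 of d4 for Ift52, -0.97 (adjusted p = 0.026) for it without replicate 1 of b2 single, and -0.87 and -0.90 (adjusted p = 0.14 in each) without replicate 1 or 3 of d4 for Bbs10. Cc2d2a differed by -0.83 there (adjusted p = 0.047), under the size threshold.

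**Figure D4:**
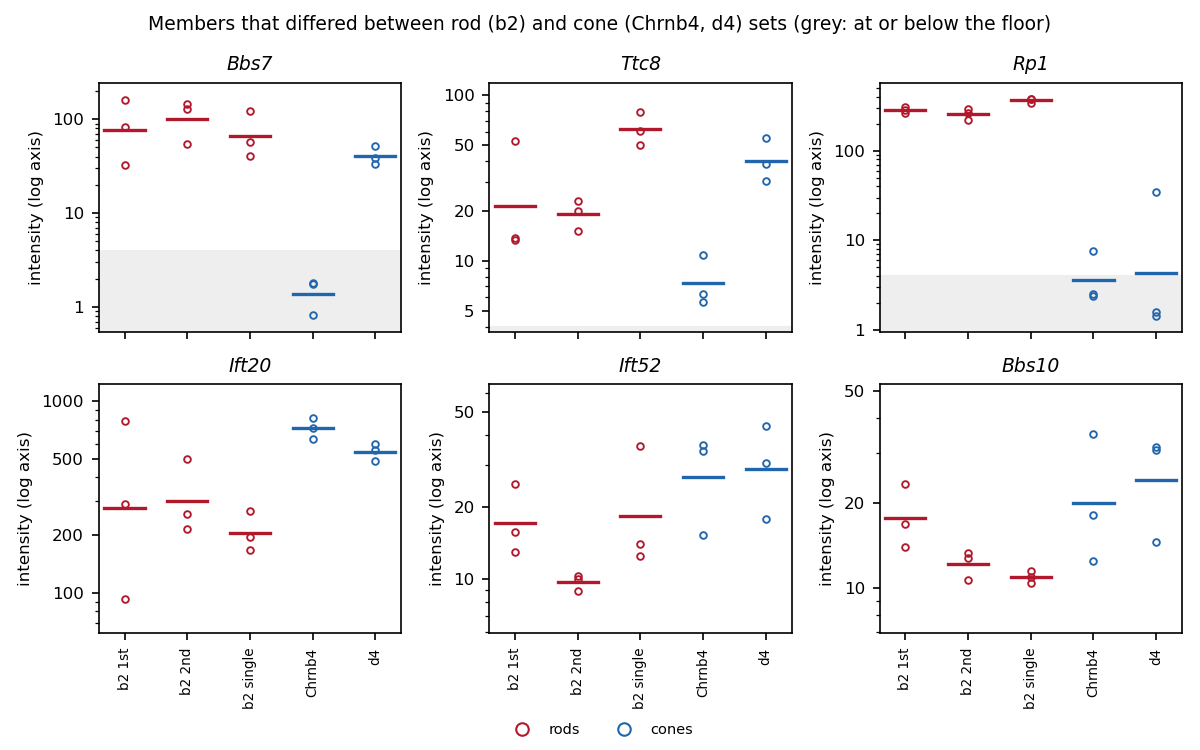
Each panel gives the intensity (log axis) of 1 member on the 3 arrays of the rod sets (b2, red) and cone sets (Chrnb4 and d4, blue), with the geometric mean as a bar and grey for values at or below the floor. Bbs7 lies under the floor in Chrnb4 alone, Rp1 is high in the rod sets alone, and Ift20 is higher in the cone sets than in most rod arrays.

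Sets of the same line measured again gave the background for these comparisons. Between b2 1st and the later b2 sets 0 members were called in limma (2 at an unadjusted p below 0.05), against 1.26% of all genes. Between Arc 1st and the later Arc sets 0 were called (1 unadjusted), against 0.192%. Ttc8 differed by -0.69 (SE 0.43) and Bbs10 by 0.61 (SE 0.34) between the b2 sets, and Bbs7 by -0.10 (SE 0.63). This comparison takes b2 2nd and b2 single as a mean, so it does not show change between them. The Ttc8 values of these sets, given above, did not overlap, although their line and batch label are the same.

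Microglia, a class of 1 line, held low values of many cilium genes. The lone line was assumed to vary as lines of the other classes do. Of the 35 tested members 10 (28.6%) were lower, against 3.64% of all genes, and 0 higher, against 5.68% (12 members had an unadjusted p below 0.05). The median difference was -0.66, against -0.06 over all genes. The microglia line was the lowest of 22 lines for 14 members, a count whose share over all genes was not computed. The 10 were 5 BBSome subunits, the IFT-B genes Ift20 and Ift88, Kif3a, Iqcb1 and Tulp1.

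Bbs9 was 3.04, 0.302 and 0.155 on the Csf2rb2 arrays, a difference of -5.40 (SE 0.86; limma adjusted p = 0.00015), or -2.53 with values raised to the floor. Bbs5 was 1.21, 1.08 and 18.3 (-3.44, SE 0.56; adjusted p = 0.00019; -2.26 with values raised to the floor), and Bbs4 was 5.28, 2.32 and 16 (-2.76, SE 0.42; adjusted p = 8e-05). Kif3a was 9.59, 2.3 and 4.26 (-3.25, SE 0.58; adjusted p = 0.00053). These genes were low on each array but for the single higher values of Bbs5 and Bbs4, and the lower ends of other classes overlapped them. Tulp1 was 1.3, 1.2 and 1.47, all under the floor (-2.83, SE 0.79; adjusted p = 0.023), and -1.48 (adjusted p = 0.096) with values raised to it.

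The other calls in microglia were Ttc8 (-2.30, SE 0.61), Bbs2 (-2.28, SE 0.58), Iqcb1 (-1.54, SE 0.46), Ift20 (-1.51, SE 0.45) and Ift88 (-1.07, SE 0.33), with limma adjusted p-values of 0.015, 0.012, 0.037, 0.033 and 0.041. Ttc8 was 2.08, 2.79 and 2.76 on the microglia arrays, all under the floor, and its difference was -1.65 (adjusted p = 0.090) with values raised to it. Without replicate 1 of every set Ttc8 (-2.23), Bbs2 (-2.19), Iqcb1 (-1.46) and Tulp1 (-2.89) lost the call, with adjusted p-values of 0.071, 0.073, 0.090 and 0.062. Without replicate 2 Iqcb1 (-1.38), Ift20 (-1.46) and Ift88 (-1.01) did (adjusted p = 0.088, 0.059 and 0.092). Ift88 was the least stable, lost in 11 of 32 alternatives. Bbs4, Bbs5, Bbs9 and Kif3a were called in all 32 run. Some members lay inside the range of the other lines: Ift52 was 28.1, 42.0 and 21.3 on the microglia arrays and Bbs10 was 36.1, 21.3 and 11.4.

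Kif3a had the clearest pattern among the inner neurons. It was 179, 147 and 155 in the horizontal line Gja10, above every other array, the next being 116 on 1 b2 1st array. The class means were 160 in horizontal, 65.1 in ganglion, 54.3 in amacrine, 16.9 in bipolar, 15.9 in photoreceptor and 4.55 in microglia lines, with SDs between lines on the log2 scale of 0.44 (ganglion, n = 4), 0.59 (amacrine, n = 9), 0.54 (bipolar, n = 4) and 0.74 (photoreceptor, n = 3). The ganglion and amacrine means, and the bipolar and photoreceptor means, lie within these spreads. The horizontal class is also 1 line, taken to vary as lines of the other classes do. The differences were 2.91 in horizontal (SE 0.58; limma adjusted p = 0.011), 1.36 in ganglion (SE 0.34; adjusted p = 0.015) and 1.04 in amacrine lines (SE 0.27; adjusted p = 0.018).

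In each of these classes Kif3a was the only member called higher, 1 of 35 (2.86%), against 1.05% of all genes in horizontal, 3.26% in ganglion and 1.55% in amacrine lines. The comparisons share their reference lines, and the low microglia value is part of each reference. Without it the differences were 2.36 (adjusted p = 0.054), 0.74 (adjusted p = 0.18) and 0.41 (adjusted p = 0.63). The ganglion call was also lost without the Opn4 line (1.18, adjusted p = 0.069), without replicate 2 of every set (1.21, adjusted p = 0.052) or in batch 3 alone (1.18, adjusted p = 0.081). Batch 3 holds no photoreceptor line, so that class is missing from the reference there. The amacrine call was lost without Arc (0.95), Igfbp2 (0.96) or d4 (0.99). None of the members was lower in horizontal (0.159% of all genes) or ganglion lines (0.973%), with 3 and 7 members at an unadjusted p below 0.05 in limma in either direction. In amacrine lines Fam161a was lower (-2.88, SE 0.49; adjusted p = 0.00070), 1 of 35 against 1.23%. It was -1.17 with values raised to the floor. Every amacrine line mean of it lay under the floor, and its high photoreceptor values are in the reference of both fits. In the lines of batch 3 alone, where photoreceptors are not in the reference, it was -0.98 (adjusted p = 0.50).

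In bipolar lines 1 member was higher (2.86%, against 1.52% of all genes) and 2 were lower (5.71%, against 1.15%). Bbs4 was 101, 71.6 and 68 in mGluR6, 56.6, 40.2 and 72.4 in Kcng4, 36.6, 72.9 and 62.1 in Pcp2 and 44.4, 57.6 and 52.5 in Lhx4. These values overlapped those of photoreceptors (22.6 to 139), and the difference was 1.25 (SE 0.24; limma adjusted p = 0.0035), with 0.73 (adjusted p = 0.13) when microglia were left out of the reference. Ift57, an IFT-B gene, was 1.61, 48.7 and 11.6 in mGluR6, 0.43, 40 and 11.3 in Kcng4, 0.369, 0.445 and 0.38 in Pcp2 and 2.45, 1.5 and 21.7 in Lhx4. The Pcp2 arrays were low without exception, while 1 array of each other bipolar line lay far above the others. The difference was -3.65 (SE 0.70; adjusted p = 0.0034), or -2.40 with values raised to the floor. It was -2.59 (adjusted p = 0.11) without replicate 1 of every set. In batch 3 alone, without photoreceptors in the reference, it was -2.82 (adjusted p = 0.098).

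Bbs12 in bipolar lines was 0.85, 0.43 and 0.472 in mGluR6, 0.0896, 28.8 and 0.217 in Kcng4, 3.27, 19.4 and 66 in Pcp2 and 2.18, 0.592 and 55.8 in Lhx4. Single arrays again stood far above the rest of their set. The difference was -3.27 (SE 0.82; limma adjusted p = 0.022). It was -1.75 (adjusted p = 0.077) with values raised to the floor, -2.58 (adjusted p = 0.11) without mGluR6, -2.77 (adjusted p = 0.11) without Kcng4 and -2.26 (adjusted p = 0.25) without replicate 1. In batch 3 alone, without the high photoreceptor values in the reference, it was -2.60 (adjusted p = 0.12). It was -3.32 (adjusted p = 0.088) once batch was taken out. Bbs12 had 24 of 78 arrays at or below the floor and Ift57 had 13.

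**Figure D5:**
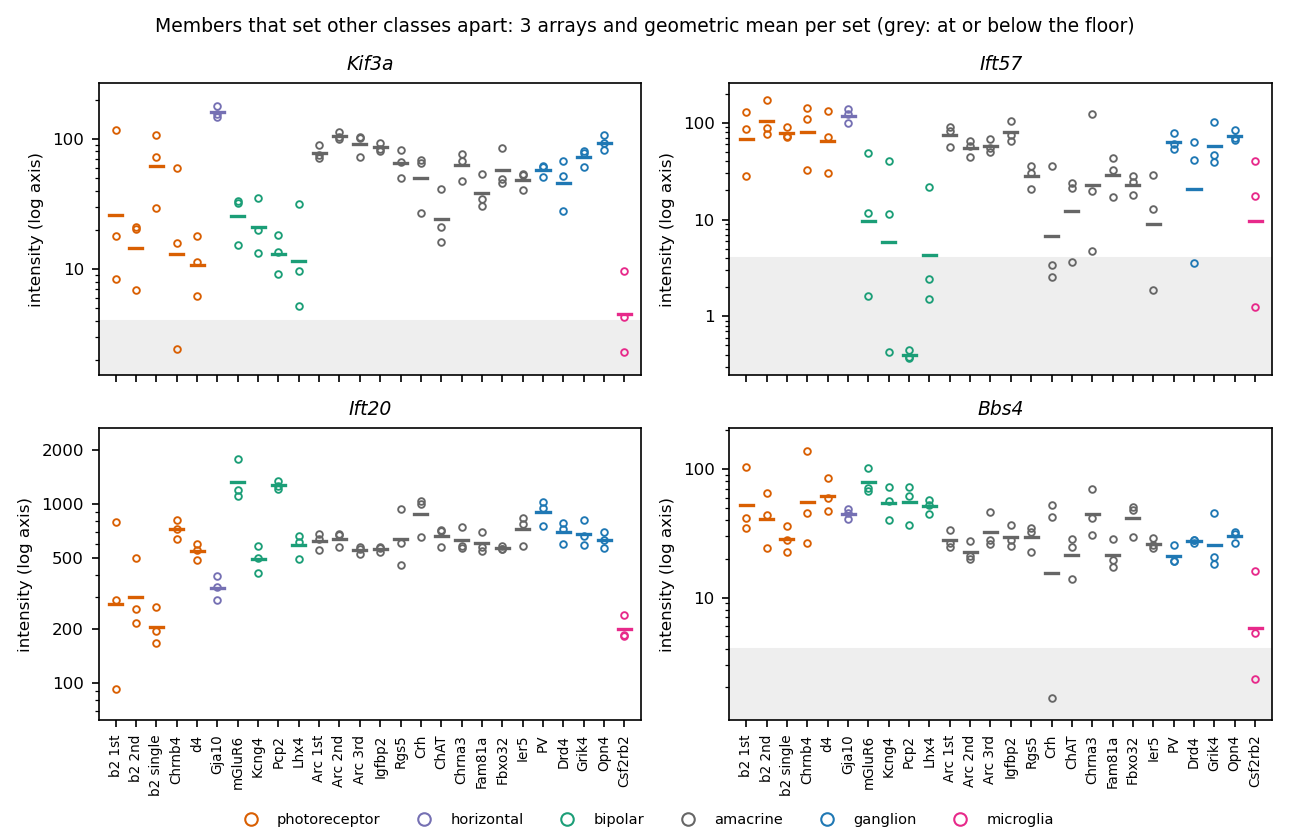
Each panel gives the intensity (log axis) of 1 member on the 3 arrays of each of 26 sets, with the geometric mean as a bar, class as colour and grey for values at or below the floor. Kif3a peaks in Gja10 (147 to 179) and is lowest in Csf2rb2, Ift57 drops under the floor in Pcp2, and Ift20 is low in the b2 rods and in Csf2rb2.

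The members varied between lines more than the typical gene. Their median SD over the 22 line means was 0.52, against 0.42 for all tested genes, and 9 members exceeded the 95th percentile of all genes, 1.25. The highest line was a photoreceptor line for 15 of the 35 tested members, an amacrine line for 11, a bipolar line for 5 and a ganglion or horizontal line for 2 each. Of the amacrine cases 9 were the Crh line, whose arrays correlated least. The same counts over all genes were not computed, so these do not show whether the members differ from other genes. All 26 sets lay above 9.01, the median of all values, for 6 members, 1 to 25 sets did for 29, and no set did for Rpgrip1l (3.81 to 8.96 over all arrays).

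Other cilium genes were taken from lists outside the members, and their counts in photoreceptors stand against 2.03% of all genes tested called higher there. Of the first list 1 of 17 tested genes, other IFT and dynein-2 genes, was higher, Ift43 of IFT-A (2.27, SE 0.52; limma adjusted p = 0.0081). Of 18 other transition zone genes 4 were: Tmem107 (2.70, SE 0.69), Tmem237 (1.68, SE 0.42), B9d1 (1.29, SE 0.39) and Tctn2 (1.09, SE 0.28). Of 12 BBSome partners and ciliary cargo genes 3 were: Unc119 (6.97, SE 1.49; 6.02 with values raised to the floor) and Pde6d (2.90, SE 0.71), carriers of lipid-modified proteins, and Arl3 (1.95, SE 0.18), the GTPase that makes them release their cargo. Of 15 further photoreceptor cilium and Usher genes 2 were, the kinase Mak (3.35, SE 0.31) and the RP1 relative Rp1l1 (1.69, SE 0.21). Ift43, Tmem107, B9d1, Tctn2, Arl3 and Pde6d were also called lower in microglia, whose low values are part of this reference. B9d1 was -1.92, Tctn2 -2.08, Arl3 -5.03 and Ift43 -5.71 there. Whether these calls hold without microglia in the reference is not given here. No gene of these lists was called lower in photoreceptors. Rp2 (-1, SE 0.23; limma adjusted p = 0.008) and Ift46 (-0.74, SE 0.22; adjusted p = 0.036) passed the p threshold and missed the size threshold, Rp2 narrowly. Ift74, Ofd1, Tmem138, Tub and Cdhr1 did so in the higher direction. Ift43 was also called higher in amacrine lines (1.26, SE 0.37; limma adjusted p = 0.042), or 0.99 with values raised to the floor. Its highest line outside photoreceptors held 320, against a photoreceptor mean of 259.

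Genes of motile cilia and of ciliary signalling were listed as well. Of 19 motile cilium genes measured, 7 were dim and 1 of the 12 tested was higher, Ccdc113 (1.69, SE 0.47). Of 9 ciliary signalling genes 0 were called in photoreceptors in either direction. Of 8 transcription factors 2 were higher, the homeobox factors Crx (3.92, SE 0.45) and Otx2 (2.89, SE 0.47), and no Rfx gene was called. Both were also called higher in bipolar lines, Crx by 1.74 (SE 0.41) and Otx2 by 4.57 (SE 0.42), and both lower in microglia (-2.46 and -2.47). A line outside photoreceptors held Otx2 at 293, against a photoreceptor mean of 85.5. The medians were -0.01 for other IFT, 0.22 for transition zone, 0.29 for BBSome partners, 0.20 for photoreceptor cilium and Usher, -0.16 for motile cilium, 0.33 for ciliary signalling and 0.39 for transcription factor genes, against -0.05 over all genes.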

How the data were processed

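RNA of 78 samples of sorted retinal cells was hybridized to Affymetrix Mouse Gene 1.0 ST arrays. The deposited table gives an intensity for each probe set on each array, made with RMA in oligo under R 2.11.1 and the build mm9 per the submitters' processing notes, which list no settings. A plan had assumed log2 values; the deposited values run from 0.0238 to 5770, so log2 was taken of them. All arrays share 1 distribution of values, as quantile normalization gives. Their number limits the precision.

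Of 22347 probe sets 19446 carried 1 gene symbol in the platform annotation, and 19368 of these matched RefSeq symbols. The probe set with the highest mean stood for a gene. Genes with at least 1 set mean above 9.01 were tested (15102; 4199 were dim). The lowest values stand in order of probe set identifier in runs of 10 or more on 70 arrays, up to 3.99, the floor. limma 3.58.1 (R 4.3.3) was fitted with a trend in the prior variance, on 22 line means for classes (b2 and Arc as the mean of 3 sets) and on 78 arrays for sets. The p-values of set comparisons measure the spread between arrays of a set, taken as shared by all sets. The members and lists were chosen with earlier results of these data known. Full values were given, by size of difference, for up to 10 members called in photoreceptors, up to 8 per rod and cone comparison, up to 5 per other class and up to 5 called genes per list. On simulated data the photoreceptor fit over 15102 genes recovered 91.5% of 200 genes changed by 2 log2 units. Replicate numbers did not pair arrays on average over all sets: the mean correlation between deviations of the same number was 0.00021. Single correlations ran from -0.54 to 0.44, and pairing within a batch was not tested. Promoter windows came from RefSeq (GRCm38.p6). Figures were drawn with matplotlib 3.10.9.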

Additional observations from a re-analysis of the deposited data

Results flagged for a closer look

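Values of lines were compared within the bipolar, amacrine and ganglion classes, 105 groups of lines and members in all. In 10 of them 1 line stood apart from the rest of its class by Dixon's criterion, which chance alone meets in about 1 in 20 groups.

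The Crh line stood above the other amacrine lines for 4 members: Kif3b at 20.2 (others 7.42 to 11.3), Ift172 at 15.3 (8.42 to 10.6), Rpgr at 14.1 (4.94 to 7.82) and Lca5 at 11.5 (6.95 to 8.34). Its arrays had the lowest correlation with each other, and their rod marker sums were 287, 2380 and 1390. The part of either in these values was not tested. The Chrna3 line stood below the other amacrine lines for Bbs9, at 0.967 (others 4.91 to 12.4), and Mkks, at 15.8 (41 to 75). Among bipolar lines Bbs4 was high in mGluR6 at 78.9 (51.2 to 54.9) and Ift52 in Kcng4 at 22.3 (19 to 19.3). Among ganglion lines Kif17 was low in PV at 7.62 (9.54 to 9.81) and Mks1 was high in Grik4 at 10.4 (7.52 to 7.85). PV is the only ganglion line of batch 1 and the only one labelled GFP. Within their classes mGluR6 and Chrna3 are the only lines labelled batch 2. For these lines line and batch cannot be told apart. The Grik4 set also held marker sums of 522 for microglia (6 of 6 genes above the median of all values), 706 for endothelium (3 of 4), 1070 for pigment epithelium (4 of 4) and 810 for Muller glia (5 of 5). In the other ganglion lines these were 50.6 to 90.9, 26.6 to 257, 40.9 to 820 and 94.6 to 1500, and their part in the Mks1 value was not tested. The difference of Bbs7 between rods and cones was larger in batch 1 than in the later sets by at least 3.25 on the log2 scale with values raised to the floor (4.79 as deposited; limma adjusted p = 0.0020).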

How the results depend on the processing

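The 40 member calls were checked in 1090 combinations of call and alternative: 989 kept the call, 101 lost it and 0 reversed. The cause of a lost call was not tested. The photoreceptor calls of Fam161a, Rpgrip1 and Tulp1 held in all 33 alternatives run. Batch 1 alone left 216 genes and 3 members called in photoreceptors, and batch 3 alone left 409 genes in ganglion lines. Both also change the reference: batch 1 has no horizontal or microglia line and batch 3 no photoreceptor line. A reference without microglia left 0 members in horizontal and 2 in ganglion lines, 260 genes in bipolar and 169 in amacrine lines. In amacrine lines 1 member was left under cyclic loess, with batch removed as a term and without the lines of low array correlation, an alternative chosen after seeing the data. Values raised to the floor gave 4 members in ganglion lines and 2 in the difference between rod and cone pairs. With 1 replicate or 1 line left out, members called ranged from 1 to 5 in bipolar, from 6 to 10 in microglia, from 1 to 3 in amacrine and from 0 to 3 in ganglion lines, and from 1 to 2 in the difference between pairs. All genes called then ranged from 12 to 30 between Arc sets, from 121 to 226 in horizontal cells and from 411 (without Drd4) to 1051 (without PV) in ganglion lines. With the replicate number as a block, 12 of 12 member calls of the set comparisons were kept, with 1229 genes called between rods and cones of batch 1. Values near the floor limit the size of the differences of Bbs7, Bbs9, Bbs12, Ift57, Rp1, Rpgrip1 and Fam161a, and in microglia of Bbs5, Ttc8 and Tulp1.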

Other observations

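The other cilium lists were also low in microglia in part. Of 17 tested genes of the other IFT and dynein-2 list 6 were lower there: Ttc30b (-6.03, SE 1.42), Ift43 (-5.71, SE 0.81), Ift81 (-3.11, SE 0.50), Kifap3, the partner of the kinesin-2 motors (-2.02, SE 0.46), Dync2li1 (-1.55, SE 0.48) and Hspb11 (-1.54, SE 0.47), against 3.64% of all genes tested. With values raised to the floor the first 3 were -3.82, -4.36 and -2.76. Of 18 other transition zone genes 3 were lower, Tmem107, Tctn2 and B9d1. Among BBSome partners and cargo genes Arl3 and Pde6d were lower. For Arl3 the difference was -3.47 with values raised to the floor (-5.03, SE 0.28, as deposited; limma adjusted p = 1.3e-10), and for Pde6d it was -2.95 raised to the floor (-3.72 as deposited; adjusted p = 0.036), while Rp2, a regulator of ARL3, was higher by 2.42 (SE 0.36; adjusted p = 5.9e-05).

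Between the cone lines 3 of 17 genes of the other IFT list, 1 of 18 of the transition zone list, 2 of 12 BBSome partners and cargo genes and 1 of 15 photoreceptor cilium and Usher genes were lower in Chrnb4 than in d4, against 3.76% of all genes. Wdr35, an IFT-A gene, was lower in Chrnb4 than in d4 (-1.76, SE 0.36), as were Ift74 (-1.33, SE 0.31), Cluap1 (-1.64, SE 0.48), Lztfl1, a regulator of BBSome traffic (-2.48, SE 0.68), Rab8a (-2.19, SE 0.64), Tmem17 (-2.23, SE 0.71) and Cdhr1, a photoreceptor cadherin (-1.03; adjusted p = 0.0054). With values raised to the floor Cluap1 was -1.46 and Lztfl1 -2.12. Unc119 was also higher in bipolar lines (5.37, SE 1.35; limma adjusted p = 0.022; 4.42 with values raised to the floor), where Arl3 was higher by 1.11 (SE 0.16; adjusted p = 0.00034), or 0.80 with values raised to the floor.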
